A study of Mus musculus with 2 samples.

Results

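Cytosolic ribosomal protein genes were described in polyA-selected RNA of whole mouse hearts at embryonic day 12.5. The genes were chosen by symbol and not by level: protein-coding genes of the M21 gene annotation (GENCODE, mm10) whose symbol starts Rpl or Rps and a digit, with the stalk genes Rplp0 to Rplp2 and with Rpsa, and without the Rps6k kinases and the symbols that contain -ps. The rule found 86 genes of 55536 in the table, 22028 of which are protein coding. Of the 86 genes, 77 encode core proteins of the ribosome, 31 in the small and 46 in the large subunit, and 8 are paralogs of a core gene. The remaining gene, Rps19bp1, encodes a binding partner of a ribosomal protein and is not a ribosomal protein itself. Ribosomal protein genes with other symbols, such as Fau and Rack1, are described beside the members.

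The design has 1 group, measured in 2 libraries that are labelled as biological replicates 1 and 2. Each library came from hearts of the strain B6NCrl, with male and female embryos pooled, and began with 10 ng of RNA, with ERCC spike-in RNAs added. The fragmentation method was Nextera tagmentation. No genotype or treatment was given. The libraries share a donor identifier but have separate biosamples, so the labels do not settle whether differences between the libraries are technical. Whole hearts hold several cell types, and in such bulk RNA fewer cells of a type and less RNA per cell cannot be told apart. The summed counts were 35520161 for replicate 1 and 32577548 for replicate 2. All 6 heart muscle markers were detected, with a median of 4408 TPM in replicate 1 and 4290 in replicate 2, where TPM is a transcript level scaled by length and library total. All 5 erythroid and all 5 macrophage markers were detected too.

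A ribosome is built from ribosomal RNA and from about equal numbers of copies of most core proteins, made by translating the messages measured here. In most genomes of mammals each protein has a single working gene, but its message has often been copied back into the genome, and such processed pseudogenes can be almost identical to the message. The messages of these genes typically begin with a run of C and T bases, the 5′ terminal oligopyrimidine tract, through which growth signals set their translation. Loss of a single copy of some of these genes causes Diamond-Blackfan anemia, and heart defects are known among its features.

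Coding sequences come first, because the reads of a gene and of a copy can be separated only where the letters differ. Sequences are from the GENCODE M21 transcripts on mm10, without the stop codon. Rpl39 (chromosome X, 37082520 to 37085402, minus strand), a protein at the exit tunnel of the large subunit, and its paralog Rpl39l (chromosome 16, 10170226 to 10174911, plus strand) differ at 23 of 153 coding bases, shown in capitals.
Rpl39: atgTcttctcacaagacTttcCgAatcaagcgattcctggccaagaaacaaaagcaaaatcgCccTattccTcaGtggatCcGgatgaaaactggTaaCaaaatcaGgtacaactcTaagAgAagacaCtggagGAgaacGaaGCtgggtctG
Rpl39l: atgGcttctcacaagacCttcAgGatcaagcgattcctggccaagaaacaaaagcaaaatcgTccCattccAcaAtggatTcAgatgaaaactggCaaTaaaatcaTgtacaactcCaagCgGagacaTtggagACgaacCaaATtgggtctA
In contrast, Rps27 (chromosome 3, 90212522 to 90213651, minus strand), a small subunit protein, and Rps27rt (chromosome 9, 114982366 to 114982739, minus strand) have the same 252 coding bases, so capitals mark nothing in them.
Rps27 and Rps27rt: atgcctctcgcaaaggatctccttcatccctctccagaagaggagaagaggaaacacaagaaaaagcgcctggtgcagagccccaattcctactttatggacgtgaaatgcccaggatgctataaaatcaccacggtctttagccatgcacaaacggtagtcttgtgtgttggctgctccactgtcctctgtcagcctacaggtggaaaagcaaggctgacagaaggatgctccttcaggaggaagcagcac
Rpl5 (chromosome 5, 107900502 to 107909005, plus strand), which binds the smallest ribosomal RNA of the large subunit, shares all 891 of its coding bases with the transcribed pseudogene Gm15500 (chromosome 7, 114705217 to 114706235, minus strand). Coding bases 1 to 120 are shown.
Rpl5 and Gm15500: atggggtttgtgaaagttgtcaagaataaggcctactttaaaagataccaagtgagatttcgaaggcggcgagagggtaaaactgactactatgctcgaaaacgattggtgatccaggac

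The starts of messages are shown for their C and T runs. Windows of 30 bases, 10 before and 20 from the annotated start, were read from RefSeq (GRCm38.p6), and the run of C and T bases at the start is in capitals. Only a run whose first base is C was counted, so a start on T, as in Rpl27a, was given none. The 5 longest such runs among the 57 core genes with a RefSeq entry were these.
Rpl15 (chr14:18270967-18270996, minus strand): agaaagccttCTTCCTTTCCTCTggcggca
Rpl35 (chr2:39005112-39005141, minus strand): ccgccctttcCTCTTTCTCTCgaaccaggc
Rps10 (chr17:27635225-27635254, minus strand): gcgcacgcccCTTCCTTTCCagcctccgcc
Rps18 (chr17:33955646-33955675, minus strand): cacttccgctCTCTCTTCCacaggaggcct
Rps6 (chr4:86857348-86857377, minus strand): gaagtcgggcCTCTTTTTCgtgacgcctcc
A C followed by 4 C or T bases stood at an annotated start of 13 of the 57 genes (22.8%), against 3.01% of 27025 RefSeq genes. This match needs C at the exact annotated base, so C and T runs over a start on T, as in Rpl27a and Rpl7a, were left out. It is therefore not a count of the messages that carry the tract. The motif CCGGAAG, recognised by ETS factors, lay on either strand of the 300-base promoter window in 24 of the 57 (42.1%), against 9.93% of all genes. GGGCGG, the SP1 motif, was in 61.4% against 38.2%, and AAGATGGC, the YY1 motif, in 8.77% against 3.19%. TATAAA was in 10.5% against 15.7%, CCAAT in 31.6% against 41.1%, and CACGTG in 10.5% against 8.09%. These are matches of letters and not sites of binding, and genes with several annotated starts had more windows to match.

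Ribosomal protein messages were abundant throughout. Of the 86 genes, 83 reached a TPM of at least 1 in both libraries, where 56.6% of protein-coding genes did. Every one of the 77 core genes was detected, and 73 of them exceeded 100 TPM in both libraries. The core genes had a median of 471 TPM in replicate 1 and 474 in replicate 2, which lay at percentile 98.1 of the detected protein-coding genes in each. The small subunit genes had a median of 489 and 477 TPM and the large subunit genes 438 and 435, so both subunits were at similar levels. All 86 genes together took 1.62% of counts in replicate 1 (95% Clopper-Pearson interval 1.620 to 1.628%) and 1.58% in replicate 2 (1.579 to 1.587%), intervals that cover counting error only. By comparison, the 78 mitochondrial ribosomal protein genes, which serve the separate ribosome of mitochondria, had a median of 83.7 and 81.0 TPM. Fau stood inside the range of the core genes, at 401 and 391 TPM in replicates 1 and 2, and so did Rack1, at 335 and 309.5 TPM.

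**Figure D1:**
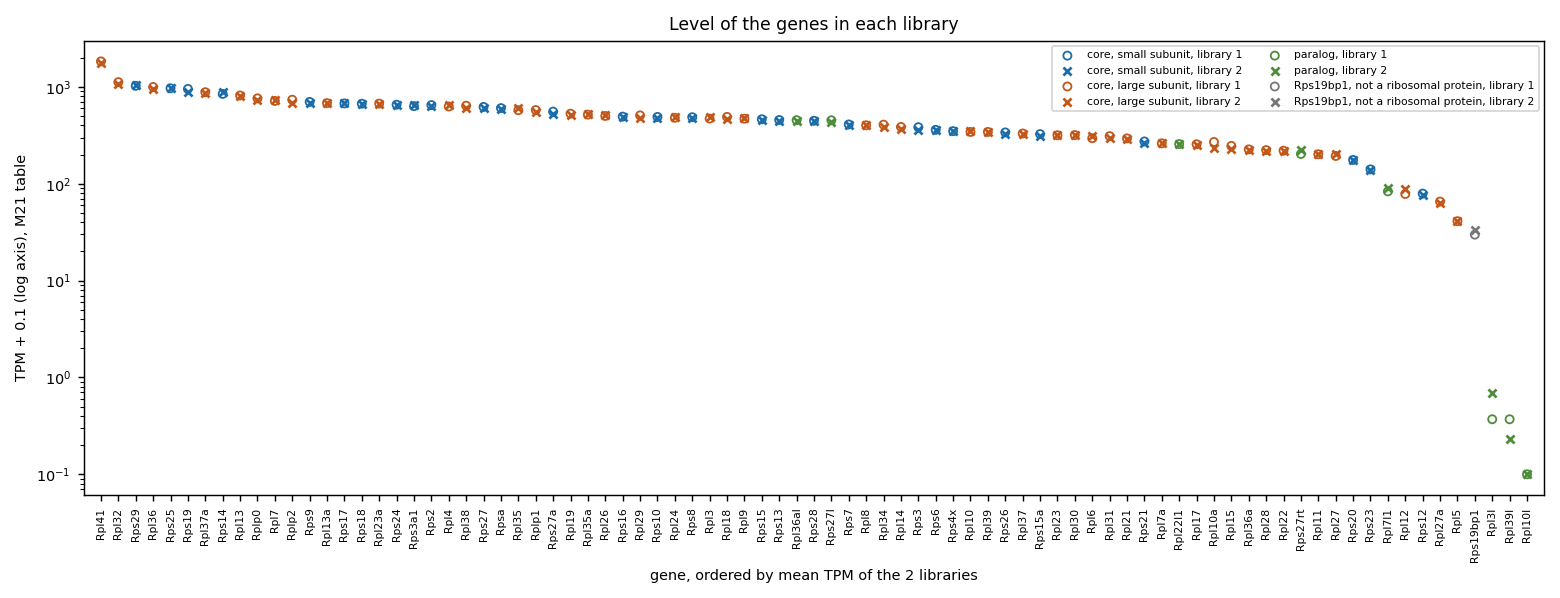
Level of 83 of the 86 genes in TPM + 0.1 on a log axis, ordered by the mean of both libraries, with circles for replicate 1 and crosses for replicate 2. The core genes drawn run from 1833 TPM (Rpl41, replicate 1) down to 41.0 TPM (Rpl5), and 3 paralogs, Rpl3l, Rpl39l and Rpl10l, lie under 1 TPM.

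The highest core messages came from genes of both subunits. Rpl41, the smallest protein of the ribosome, stood at 1833 TPM in replicate 1 and 1772 in replicate 2, and Rpl32, a large subunit protein, at 1119 and 1064 TPM. Both were lower in replicate 2. Rps29, a zinc-binding small subunit protein, followed at 1025 and 1040 TPM. Rpl36, Rps25, Rps19, Rpl37a, Rps14, Rpl13 and Rplp0 were also among the 12 highest, between 739 TPM (Rplp0, replicate 2) and 997 TPM (Rpl36, replicate 1).

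In the deposited levels the lowest core gene was Rpl5, at 41.0 TPM in each replicate. Rpl27a stood at 65.3 and 62.7 TPM, Rps12 at 79.0 and 75.5, and Rpl12 at 78.2 and 88.7. All 4 lay well under every other core gene, the next being Rps23, a protein of the decoding site, at 140.4 and 138 TPM. Rps20 followed at 176 and 174 TPM and Rpl27 at 193 and 200.5. For Rpl5, Rpl27a, Rps12, Rpl12, Rps23 and Rpl27, matched pseudogenes held over 50% of the reads of gene and pseudogenes together, as described below. Rpl41 stood 44.0 times above Rpl5 as deposited, and 5.27 times with the reads of matched pseudogenes added. As deposited, 59 of the 77 lay within 2-fold of the core median of 479.5 TPM. The order was nearly the same in both libraries, with a Spearman rho of 0.997 across the 77 genes, which share their libraries and their deposited lengths. Between neighbours in the order, the library values overlapped in 41 of 76 pairs, so such genes cannot be ranked against each other. TPM ran weakly against effective length, with a rho of -0.38 in replicate 1 and -0.36 in replicate 2.

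By role, the stalk proteins Rplp0, Rplp1 and Rplp2, which recruit translation factors, were at a median of 737 and 675 TPM. Rplp1 stood at 577 and 556 TPM and Rplp2 at 737 and 675. Rpl5 and Rpl11, partners that carry the smallest ribosomal RNA into the large subunit and bind the p53 regulator Mdm2, stood at 41.0 TPM in each replicate (Rpl5) and at 201 and 204 TPM (Rpl11). Pseudogenes that match Rpl11 held 39.2% and 36.1% of their joint reads, and with those reads added Rpl11 stood at 331 and 319 TPM. The 8 genes of the exit tunnel rim had a median of 422 and 424 TPM, from Rpl22 at 219 and 217 TPM to Rpl23a at 672 and 659 TPM. Rps27a, made as a fusion with ubiquitin, stood at 555 and 526 TPM. The 19 genes linked to Diamond-Blackfan anemia had a median of 489 and 469.6 TPM, against 471 and 474 for all core genes, and ran from Rpl5 to Rps29. Rpl38, whose loss alters the patterning of the mouse skeleton, stood at 639 and 612 TPM, and Rps6, the protein phosphorylated by S6 kinases, at 359.7 and 357 TPM. The whole coding sequence of Rps6 also lies in the pseudogene Rps6-ps4, at 288 and 308 TPM. That of Rpl38 lies in Rpl38-ps2, at 157 and 160 TPM.

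Of the paralogs, 5 were detected and 3 were at or near 0. Rpl3l, the striated muscle form of Rpl3, stood at 0.27 TPM from 8 counts in replicate 1 and at 0.59 TPM from 13 counts in replicate 2, while Rpl3 stood at 471 and 491 TPM. Rpl3 was 1717 times higher in replicate 1, with an exact Poisson interval for counting error of 871 to 3976, and 833 times higher in replicate 2, with 487 to 1565. The coding sequences of Rpl3 and Rpl3l agree at 74.3% of aligned bases and share no 100-base window. Skeletal muscle markers were low in the same libraries, with Myod1 at 0.39 and 0.23 TPM, although Myog was at 0.96 and 1.67 and Actn3 at 3.28 and 3.20.

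The forms known from testis were not measurable. Rpl39l had 3 counts in replicate 1 and 2 in replicate 2, against 342 and 338 TPM for Rpl39, which was 1270 times higher in replicate 1 (counting interval 434 to 6157) and 2664 times in replicate 2 (738 to 22002). Rpl10l, a retrogene copy of Rpl10 used in male germ cells, had no count in either library, which allows at most 8.45e-06% and 9.21e-06% of counts. Rpl10 stood at 342 and 347.5 TPM, at least 2600.2-fold and 2388-fold higher than the level that 3 counts of Rpl10l per library would give. Male germ cell markers were at 0 or low, with Tnp1 and Acrv1 at 0 counts and Ddx4 at 0.89 and 1.14 TPM.

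Other paralogs stood within the range of the core genes, with Rpl7l1 near its low end. Rpl36al stood at 453 and 445 TPM, above Rpl36a at 226 and 223 TPM, a log2 ratio of core gene over paralog of -0.998 ± 0.0044 (SD, n = 2). All 318 coding bases of Rpl36a also lie in the pseudogene Rpl36a-ps2, at 128.0 and 97.5 TPM, whose reads are not in this ratio. The SD does not cover how reads were split between such copies. Rpl22l1 stood at 256 and 257 TPM, slightly above Rpl22 at 219 and 217, with a log2 ratio of -0.23 ± 0.013. Rpl22l1 encodes a protein known to substitute for Rpl22. Rps27l, a paralog induced by p53, stood at 452 and 438 TPM, below Rps27 at 621 and 601 TPM, with a log2 ratio of 0.46 ± 0.0020. On the M4 table, an older annotation applied to the same reads, the order turned, with a ratio of -1.33. Rpl7l1, a nucleolar relative of Rpl7, stood at 83.2 and 89.8 TPM against 716 and 738 TPM for Rpl7. These ratios compare genes per length on the M21 table, with 0.5 added to each TPM. In plain counts, which are not divided by length, Rpl22 was above Rpl22l1 (log2 0.24) and Rps27 below Rps27l (log2 -0.23). With 2 libraries an exact test of a ratio cannot reach 0.05, so none is given.

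Rps27 and Rps27rt could not be separated. On the M21 table Rps27 stood at 621 and 601 TPM and Rps27rt at 203 and 225 TPM. On the M4 table the order turned: Rps27 stood at 191 and 178 TPM and Rps27rt at 686 and 698 TPM. Their sum hardly moved, at 823 and 825 TPM on M21 and 876.3 in both libraries on M4. M21 lists 9 transcripts of Rps27 and M4 lists 1. Of the 100-base windows of the Rps27 reference transcript, 98.4% recur in another gene.

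Reads of the ribosomal protein genes were shared with many copies. By sequence search, 1123 annotated pseudogenes matched 80 of the 86 genes at 90% identity or more over at least 100 bases, with a median of 10 per core gene and 89 for Rpl7a. In the deposited tables these pseudogenes held 12.2% of the reads of members and pseudogenes together in each library (95% Clopper-Pearson intervals 12.1 to 12.3% in both). A 100-base window recurred in another gene for 72 of the 77 core genes, and at least 50% of windows did for 37. Among the 5 core genes with no such window were Rpl32, Rps3, Rps21 and Rpl22.

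The share on pseudogenes was concentrated in a few genes. The core median was 2.07%, and 27 core genes were under 1% in both libraries. In 8 core genes, pseudogenes held over 50% of the joint reads in both libraries: Rpl5, Rps23, Rpl28, Rpl27a, Rpl27, Rpl12, Rps12 and Rpl15. The 6 lowest core genes apart from Rps20 (Rpl5, Rpl27a, Rps12, Rpl12, Rps23 and Rpl27) are all among these 8. For Rpl5, pseudogenes held 88.4% and 87.6% of joint reads, and for Rps23 76.1% and 76.3%. Rpl27a stood at 64.2% in both, and Rps12, with 22 matched pseudogenes, at 59.2% and 58.5%.

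Single copies that held many such reads are given for 3 of these genes. Gm15500, whose 120 printed bases are those of Rpl5, was at 403 and 395.5 TPM from 9159 and 8119.7 counts, against 1207 and 1148 counts for Rpl5. Rps23-ps1 was at 847 and 835 TPM from 6809.6 and 6074 counts, against 2156 and 1901 counts for Rps23. Rpl15-ps3 was at 512 and 495 TPM, against 246 and 228 TPM for Rpl15. In all 3 cases the pseudogene stood above its gene in both libraries.

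Whole coding sequences were found in other genes. For 18 members the complete coding sequence lies within a transcript of another gene, 20 such genes in all, and in 8 members that gene stood above the member in both libraries. These 8 are Rpl5, Rpl27a (Gm7536 at 332 and 322 TPM), Rpl12 (Gm10275 at 239 and 212 TPM), Rpl27 (Gm11518 and Rpl27-ps3, each at 318 and 285 TPM), Rpl28 (Rpl28-ps1 at 486 and 495 TPM), Rpl15, Rps29 (Gm14303 at 1096 and 1177 TPM) and Rps27rt (Rps27). Within such a coding sequence no read can be assigned by its letters, and only bases outside it can separate the genes. Rpl10-ps3, a protein-coding copy of Rpl10 that the symbol rule leaves out, was at 123.0 and 117 TPM.

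**Figure D2:**
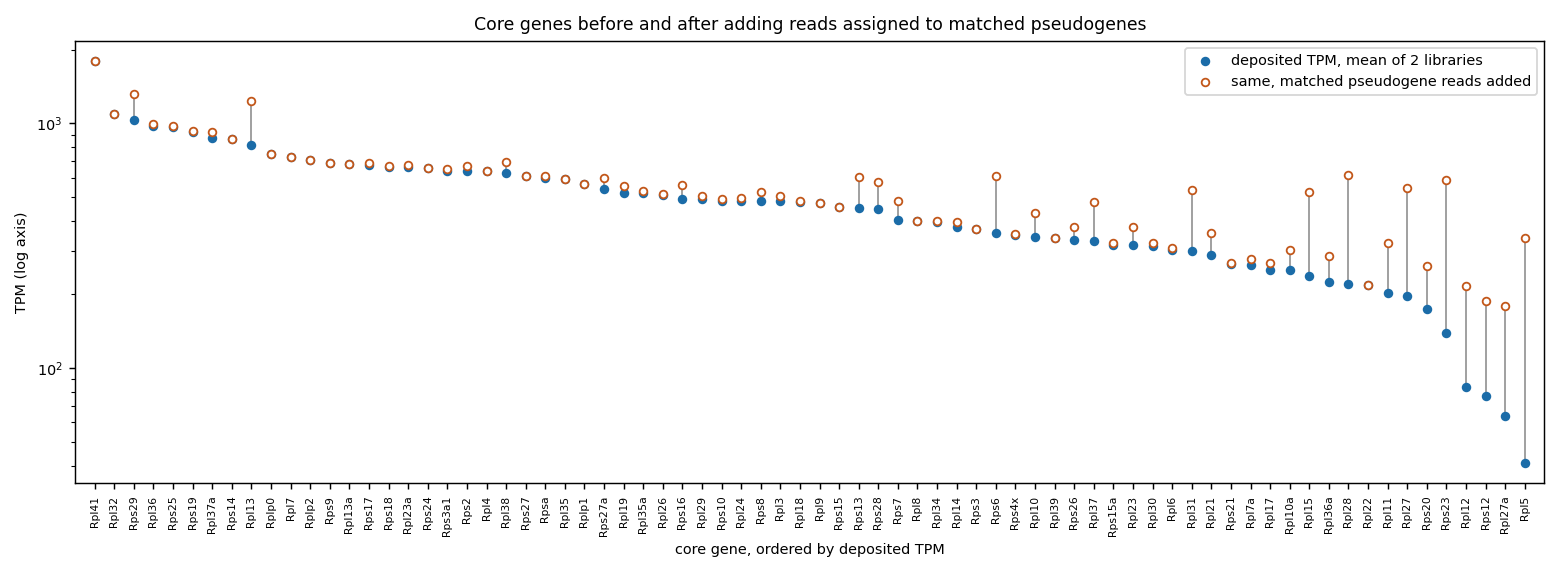
Mean TPM of 74 of the 77 core genes on a log axis, ordered by deposited TPM, before (filled) and after (open) the reads of matched pseudogenes were added to the gene. The largest gaps are at the low end, where Rpl5 moves from 41.0 TPM to 352 in replicate 1 and 331 in replicate 2.

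When the reads of matched pseudogenes were added to their gene, a calculation chosen after the data were seen, the low end of the core genes moved up. Rpl41 then stood 5.27 times above Rpl5, against 44.0 times before. Rpl5 was no longer the lowest: that was Rpl27a at 179 TPM, which Rpl41 exceeded 10.1 times. The median became 528 TPM, and 67 of 77 genes lay within 2-fold of the median, against 59. With those reads Rpl28 stood at 619 and 616 TPM, Rps23 at 587 and 584, and Rpl27 at 558 and 528. Across the 77 core genes, deposited TPM had a Spearman rho of -0.54 with the share of reads on pseudogenes. The TPM enters both measures, and whether the pseudogene reads came from the ribosomal protein genes was not tested.

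Each deposited count comes with a posterior standard deviation (SD), a measure of how unsure the split of reads among similar loci was. As a percentage of the count its median over members was 0.353% in replicate 1 and 0.3396% in replicate 2, against 0 over all genes with a count of at least 100. It was 2% or more in both libraries for 14 of 83 members (16.9%) and for 4.81% of 12318 genes. Rps27rt was highest, at 7.94% and 6.89%. Rps12 followed at 4.20% and 4.39% and Rpl5 at 3.59% and 3.72%. Rpl10, Rps27, Rpl12, Rps6 and Rpl10a completed the 8 highest, between 2.62 and 3.12%. Across core genes the value had a rho of 0.61 with the share of shared windows, as a description over 77 genes of the same libraries. A small value did not mark genes without copies: Gm15500 itself had 0.404% and 0.450%.

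The choice of annotation moved few members far. With 0.5 added to each mean TPM, 3 of 83 members differed at least 2-fold between M4 and M21, against 3.15% of 14332 genes, so the members' share of 3 in 83 was near the background. Among these 3 were Rps27 and Rps27rt, and 68 of the 83 stayed within 0.25 on the log2 scale. Rpl27, Rpl37, Rpl10a and Rpsa were higher on M21, with log2 ratios of M4 over M21 between -0.96 and -0.79, and Rps20 was higher on M4, at 0.94. For Rpl37, Rpl10a and Rpsa the leading M21 transcript is not in the M4 table.

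**Figure D3:**
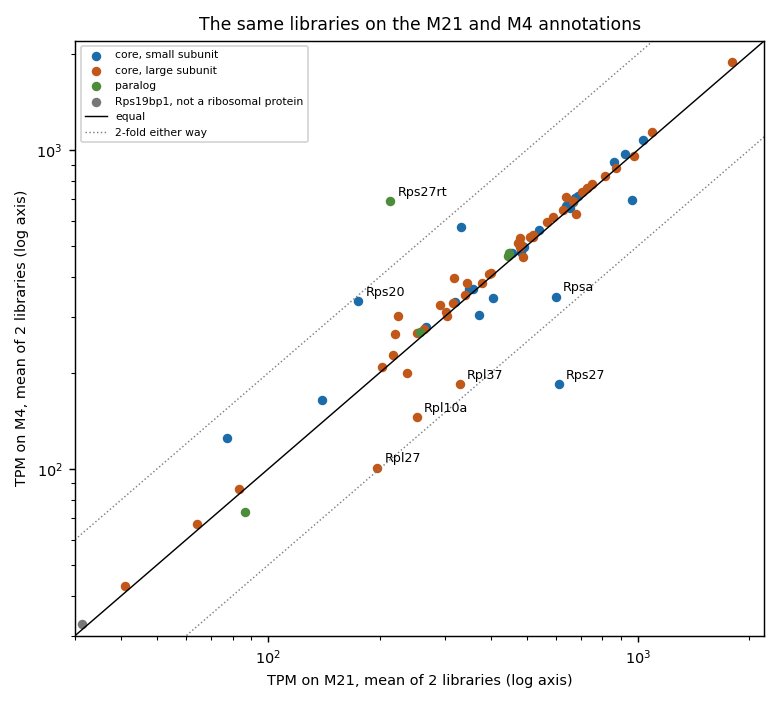
Mean TPM of 80 of the 83 detected members on the M4 table against the M21 table, both on log axes, with the line of equal values and dotted lines at 2-fold. Most genes lie along the line, with Rps27 under the lower dotted line and Rps27rt above the upper one.

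Many ribosomal protein messages were carried by a single annotated transcript. Of 79 detected members with at least 2 annotated transcripts, 32 (40.5%) had 1 transcript holding at least 90% of the gene's TPM in both libraries, against 20.4% of 11344 protein-coding genes. The median share of the leading transcript was 87.4% against 68.1%. In counts not divided by length, 36 members (45.6%) had such a transcript, against 31.8% of the same genes, a smaller gap. No test was made of these differences. Among the 8 lowest shares of detected members were those of Rpl13a, Rpl15, Rps24, Rpl29, Rpl37, Rpl5 and Rpl38. Rpl13a, with 19 annotated transcripts, had a leading share of 27.8% and 28.1%. In Rps24, known for a small alternative exon near its end, Rps24-202 held 36.5% and 40.4% of TPM and Rps24-205 followed at 202 and 197 TPM.

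In 11 of these 79 members the leading transcript was of a type that the annotation does not call protein coding. The same share over all protein-coding genes was not counted, so 11 of 79 is not shown to be particular to the members. Such types, among them transcripts labelled as subject to nonsense-mediated decay, together held 94.2% and 92.8% of the TPM of Rpsa, the laminin receptor and a small subunit protein, and 98.3% and 98.2% of that of Rps16. Rpl35, Rps26, Rps20, Rpl23, Rpl37, Rpl15, Rpl12 and Rpl5 were also among the 11. These transcript types share most exons with the coding transcript of their gene, and how far the split follows real messages was not tested.

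Some members also overlap genes on the other strand. The use of strand in counting is not given in the sources used here, so reads that fall within the shared bases of such a pair cannot be told apart. Reads outside them are not affected, and for Rpl32 and Cand2 the overlap is only 53 bases. An exon of 19 members overlaps a gene of the opposite strand, and in 10 pairs that gene had over 10% of the member's count in both libraries. How often this holds over all genes was not counted. Ube2s, opposite Rpl28 over 183 bases, had 6262 and 5832 counts against 2131 and 1899 for Rpl28. Fam69a, opposite Rpl5 over 953 bases, had 936 and 849.7 counts, close to the 1207 and 1148 of Rpl5. The other 8 pairs were Rpl32 and Cand2, Rps18 and Vps52, Rpl35 and Arpc5l, Rps25 and Trappc4, Rpl31 and Tbc1d8, Rps28 and Kank3, Rpl18 and Sphk2, and Rpl12 and Lrsam1. Within 30 members lie 59 genes of small nucleolar RNAs, which guide changes to ribosomal RNA and lack a polyA tail. Of these, 46 had no count in either library, and all 59 together had 20.3 and 25.6 counts.

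The 2 libraries differed little in these genes. By an exact conditional binomial test, two-sided, with Benjamini-Hochberg adjustment over 17970 genes, 260 genes (1.45%) were called at an adjusted p under 0.05 with at least a 2-fold difference, and of 84 members tested 0 were, also with DESeq2 size factors, while 37 (44.0%) had an unadjusted p under 0.05, as did 22.0% of all genes tested. At the adjusted p alone, 23 of the 84 members passed, against 9.71% of all genes. Of these, 22 were lower in replicate 2, where 5.59% of all genes were, and 1, Rpl6, was higher, where 4.12% were. Rpl6 did not pass with ERCC totals as scaling or without the filter on low counts. Among genes with 2000 counts or more over both libraries, 28.4% of 81 members passed at the adjusted p alone, against 14.3% of 6760 genes. The test covers counting error only and compares these 2 libraries, not conditions.

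The differences were small and mostly in 1 direction. The core genes had a median log2 ratio of replicate 2 over replicate 1 of -0.06, against -0.0069 for all tested genes, and 66 of 77 were below 0. By their median, at least as many of all tested genes lay below 0 as above it, and their exact share was not counted. Over all members the median was -0.05, and between -0.06 and -0.04 under the other scalings. Both subunits had nearly the same median, -0.055 for the small and -0.054 for the large. The 3 lowest ratios were those of Rpl10a at -0.23 (95% interval -0.29 to -0.17), Rplp2 at -0.16 (-0.21 to -0.10) and Rpl29 at -0.12 (-0.17 to -0.066). The 3 highest were Rpl3l at 0.78 (-0.57 to 2.29), Rps27rt at 0.12 (0.0080 to 0.23) and Rps19bp1, none of which passed. Of the 84 members, 83 lay within 0.25 of 0, as did 76.0% of all tested genes. These shares are not alike in depth: 81 of the 84 members had 2000 counts or more over both libraries, against 6760 of 17970 genes. The share within 0.25 among genes of such counts was not computed, so the members are not shown to be steadier. In the same comparison replicate 2 was called lower for 5 of 5 hepatocyte markers, with a median of -2.34 and summed levels of 149 and 29.8 TPM, and 4 of 5 erythroid markers passed at the adjusted p alone, also lower, with Hbb-y at -0.20 and summed levels of 32502 and 29163 TPM. None of the 5 hepatocyte markers was at 0 in a library. The part of these cells in the members' lower ratios was not tested.

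**Figure D4:**
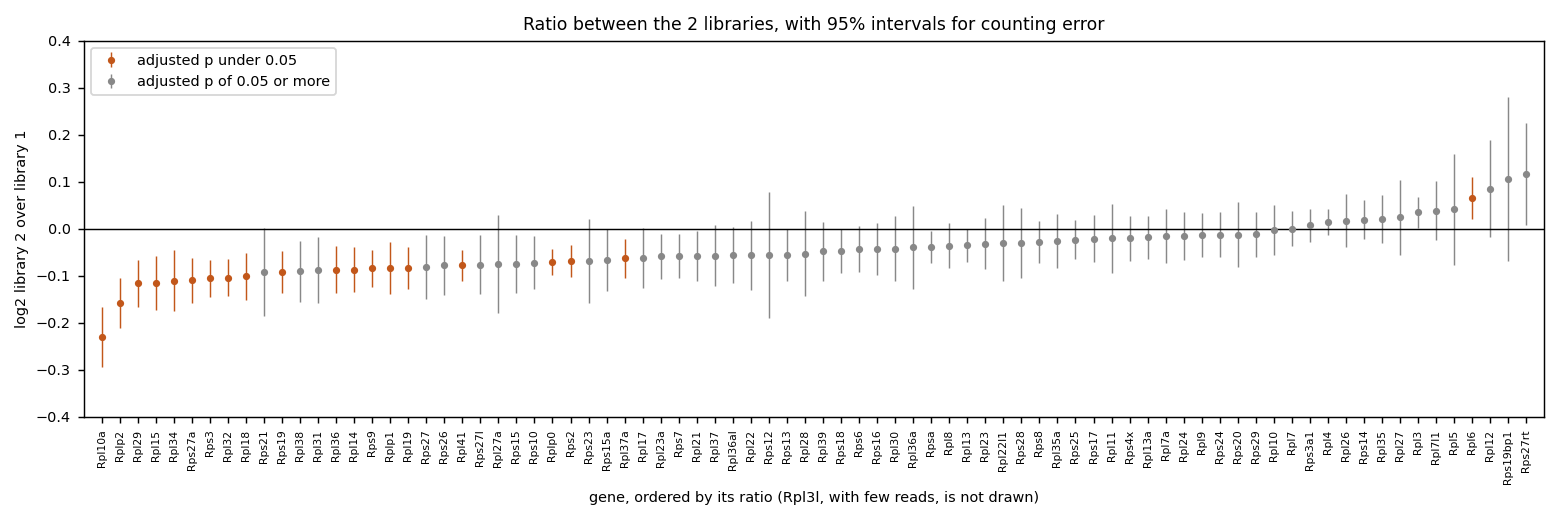
Log2 ratio of replicate 2 over replicate 1 for 80 members, ordered by size, with 95% intervals that cover counting error and colour for an adjusted p under 0.05. Most points lie just under 0, with Rpl10a lowest at -0.23, and Rpl3l at 0.78 is left out for its few counts.

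The genes that assemble ribosomes had lower median levels than the ribosomal proteins. All 14 genes of RNA polymerase I and its factors, which transcribe ribosomal RNA, were detected, with a median of 28.5 and 29.4 TPM and the highest at Polr1d (73.6 and 71.1). All 35 assembly factors of the small subunit had a median of 26.5 and 26.1 TPM, led by Emg1 at 82.3 and 83.3, a methyltransferase of ribosomal RNA. The 39 assembly factors of the large subunit had a median of 35.95 and 37.1 TPM, led by Rsl1d1 at 114 and 118. The 12 nucleolar proteins had a median of 94.6 and 97.1 TPM, led by Npm1 at 411 and 399 TPM and Ncl at 264 and 258. The 10 chaperones and importers of ribosomal proteins had a median of 38.4 and 40.7 TPM, led by Aamp at 132 and 133 TPM, and the 18 regulators of these messages 32.2 and 34.2 TPM, led by Cnbp at 608 and 597, a protein that binds such messages.

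Between the libraries none of these lists had a called gene, out of 131 genes with the ribosomal proteins of other symbols, by the binomial test on edgeR's TMM scaling, while 27 (20.6%) had an unadjusted p under 0.05, near the 22.0% of all genes tested. At the adjusted p alone 8.40% passed, against 9.71% of all genes, so these lists did not stand out. Of them 1 gene was higher in replicate 2, Tcof1 at 0.16, and 10 were lower, among them Rack1 at -0.09, Npm1 at -0.07, Rrn3 at -0.11, Cnbp at -0.05 and Imp3, the lowest, at -0.20. List medians lay between -0.07 and 0.0098, and that of the mitochondrial ribosomal proteins was -0.03, with 3 of 78 lower at the adjusted p alone. The core cytosolic genes, at -0.06, were near the lower end of these medians.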

How the data were processed

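The authors' gene and transcript tables of 2 libraries were used, on the annotations M21 (main) and M4 (mm10), per the text deposited beside them. The deposited expected counts share out reads that map to several places and were rounded for tests. The deposited TPM values are levels per effective length, scaled to a set sum. The deposited FPKM values are per the file headers, fragments per length and per total of reads. The tables have the column layout of RSEM, but aligner, counter, versions and strand setting were not given in the sources used here. Deposited lengths exceed effective lengths by 99 bases.

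Members and lists were chosen with earlier results of these data known. Symbols, biotypes and coordinates came from GENCODE M21, matched by gene identifier. Genes named are the 12 highest and 12 lowest members, the paralog pairs, the 3 highest and 3 lowest library ratios, the 8 most uncertain, the 8 most moved between annotations, the 8 lowest transcript shares, role groups, up to 3 leading genes per list, and called genes. The genes with over 50% of reads on pseudogenes, the overlap pairs, the non-coding leading transcripts and the copies were named after their values were seen. A few genes that these rules name are not reported here and not drawn.

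Pseudogene models were matched to member transcripts with BLAST 2.17.0, each model to 1 member. Libraries were compared over genes reaching 20 counts in sum, by the binomial test with TMM factors of edgeR 4.0.16 (DESeq2 1.42.0 size factors as an alternative). Ratios carry 0.5 added to each scaled count. On simulated libraries the test recovered 196 of 200 changed genes, with 1 false call among 17972 genes. Those libraries held counting error alone, as the test assumes, and changes larger than the 2-fold threshold. The result therefore checks the code and does not cover further spread between real libraries. Gene rows with numeric identifiers (26248) were left out and hold 0.00012% of counts. Intervals cover counting error only, since reads are not independent molecules.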

Additional observations from a re-analysis of the deposited data

How the results depend on the processing

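The number of detected members (83) was the same under the M4 table, FPKM, posterior mean TPM, a TPM of at least 10 and each library alone. The members' median of 449 TPM became 468 on M4, 309.9 in FPKM and 437 as posterior mean TPM, and their 1.60% of counts became 1.66% of gene counts and 1.74% of nuclear gene counts without globins. Without a fold threshold 23 members differed between the libraries, against 0 with it, and 20 to 25 under the other scalings, filters and annotation, chosen after the data were seen. The core gene was higher in 6 of 8 paralog pairs, in 4 of 8 on M4, and in 3 of the 5 pairs with both genes at a TPM of at least 1. On M4 the log2 ratio was -1.33 for Rps27 over Rps27l and -1.91 for Rps27 over Rps27rt, and in counts not divided by length it was 0.24 for Rpl22 over Rpl22l1 and -0.23 for Rps27 over Rps27l. The cause was not tested. Reads on pseudogenes were 12.2%, 13.0% on M4 and 11.5% at 95% identity. Median assignment uncertainty was 0.346%, and 0.285% on M4. The ratio of Rpl41 to Rpl5, 44.0, was 43.8 on M4 and 5.27 with pseudogene reads added, and the core median of 479.5 TPM became 528. Leaving out a library gave ranges of 446 to 452 TPM, 1.58 to 1.62% of counts, 12.17 to 12.18% on pseudogenes, 0.3396 to 0.353% uncertainty, 34 dominant transcripts against 32, and a ratio of Rpl41 to Rpl5 of 43.2 to 44.7. At a share of 80% and 95%, 44 and 27 members (55.7% and 34.2%) had a dominant transcript, against 32.8% and 12.6% of the protein-coding genes compared. In counts not divided by length 36 members (45.6%) had one, against 31.8%. On M4 it was 25 of 60 members (41.7%), against 22.4% of 9074 genes. The 34 members in each library alone were 43.0%, against 23.9% of those genes in replicate 1 and 23.8% in replicate 2. Of 86 single levels, 74 moved by more than the library SD on M4 and 57 as posterior means. No paired analysis was possible because the series has a single group. Depth limits only Rpl3l, Rpl39l and Rpl10l, with at most 13 counts.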
